A study of Zea mays with 18 samples.

Results

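The 200 transcripts described here were detected in roots of the maize inbred line T250 and not in roots of the inbred line Lo5. Their probes were marked well above background on all 9 T250 arrays and on none of the 8 Lo5 arrays used, and they have the largest mean differences of log2 level, T250 minus Lo5. Of the 39372 probes besides controls, 424 (1.08%) met the detection rule, and the 200 largest differences were kept. The opposite pattern, detection on all 8 Lo5 arrays and on no T250 array, was met by 165 probes. The members were chosen by their detection marks and by their levels in the 2 lines, so the levels in the 2 lines are given as a description without a test.

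Maize inbred lines are known to differ widely in gene content and in the sequence of shared genes, and each array probe was designed from a transcript of the B73 line. A spot reads the amount of a transcript and how well that transcript pairs with the probe. For transcripts seen in T250 and not in Lo5 these 2 cannot be told apart here. In bulk root RNA, fewer cells of a type and less RNA per cell cannot be told apart either.

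Root RNA was taken from T250 (low nitrogen use efficiency) and Lo5 (high nitrogen use efficiency) seedlings at 0, 1 and 4 d of hydroponic growth without N, with 3 arrays for each of the 6 groups and 1 array for each sample. The 3 replicates of a group are separate growth experiments. All groups, the 0 d ones included, came from seedlings germinated in the dark and kept in a CaSO4 solution before that, and no group was given N, so a difference between days holds both growth and the lack of N. A level below is a spot's processed intensity on the log2 scale, from which the 75th percentile of its array was subtracted, so that 0 marks that percentile.

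One array went against its label. With the label Lo5 1 d replicate 3, it had 188 of the 200 transcripts (94%) well above background, against 75.1% of all probes. The rule left this array out. With this array counted among the Lo5 arrays, 26 probes would meet the rule. Between 28868 and 32446 probes were well above background on each of the 18 arrays, and no spot was saturated. Of the root genes looked for, rth3, a root hair gene, lay between 2.79 and 3.95 on the T250 arrays and between 3.90 and 5.15 on the 8 Lo5 arrays. rtcs1 was well above background on 9 T250 and 4 Lo5 arrays, and nas1 on 8 of each. Of the photosynthesis genes, rbcs1 was well above background on 1 T250 array and 0 Lo5 arrays, pep1 on 3 and 0, cab48 on 4 and 4, and lhcb3 on 9 and 8, the last between −3.62 and −2.56 in T250.

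In T250 the levels were spread around those of other detected probes. The mean over the 9 T250 arrays ran from −2.68 to 3.28, with a median of −0.82, against a median of −1.0 over the 26491 probes well above background on all 9 T250 arrays. Of the 200, 54 (27%) averaged above the 75th percentile of the arrays, 120 between −2 and 0, and 26 at −2 or lower, while 35.7% of those 26491 probes averaged above it. The ranking used the T250 level itself, so the cut at 200 favoured transcripts bright in T250. The median difference T250 minus Lo5 was 7.47 in the members and 5.62 in all 424 probes of the rule. The likeness to other detected probes thus depends on where the list was cut. On single arrays the median over the 200 transcripts lay between −0.99 and −0.52 on each of the 9 T250 arrays and between −8.83 and −7.79 on each of the 8 Lo5 arrays.

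No T250 array overlapped a Lo5 array for any of the 200 transcripts. The narrowest distance between the lowest T250 array and the highest Lo5 array was 1.40. Over all probes, 2523 of 39372 (6.41%) had every T250 array above every Lo5 array, and 424 (1.08%) met the detection rule. Single T250 spots went down to −5.98, and single Lo5 spots up to −5.34 (GRMZM2G139467_T01 on 1 d replicate 1).

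**Figure D1:**
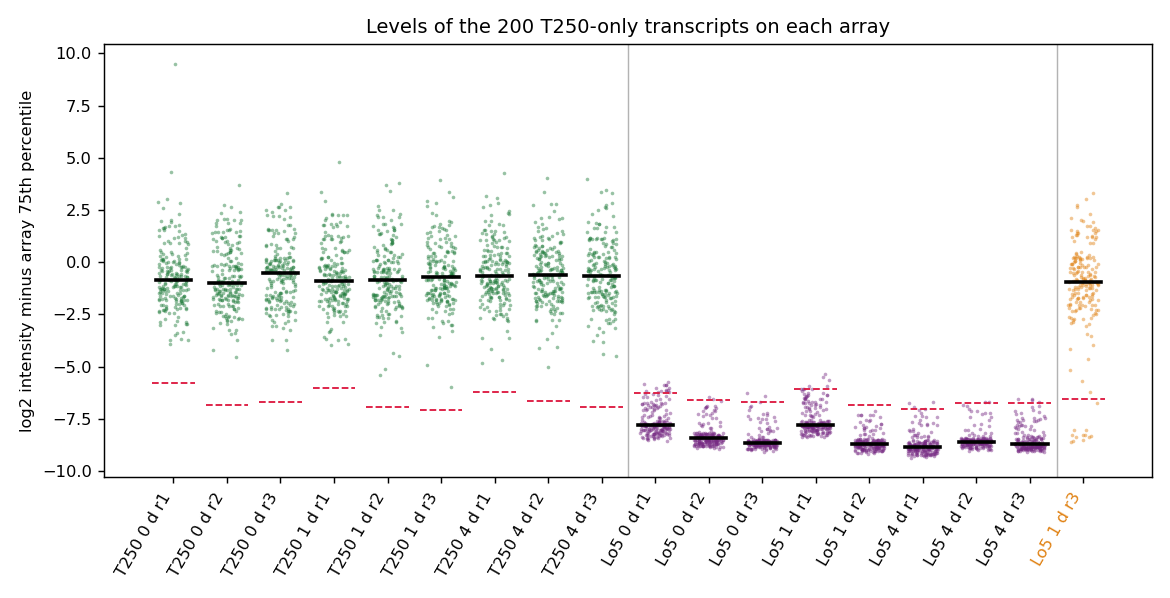
Level of each of the 200 transcripts (points, log2 scale relative to each array's 75th percentile) on the 9 T250 arrays (green), the 8 Lo5 arrays of the rule (purple) and the array labelled Lo5 1 d replicate 3 (orange), with the median (black bar) and the lowest level of any probe well above background on that array (dashed red line). The medians lie between −0.99 and −0.52 in T250, between −8.83 and −7.79 in Lo5, and at −0.93 on the array left out of the rule.

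The difference T250 minus Lo5 ran from 5.86 to 11.49 on the log2 scale, with a median of 7.47. Since the Lo5 spots were not well above background, the fold is a lower bound. It sets the mean of the 9 T250 arrays against the mean over the 8 Lo5 arrays of the higher of the own level and the lowest level of a probe well above background. Marked spots were counted in it. This bound was at least 15.3-fold for every member, at least 55.6-fold at the median, and at least 938-fold for GRMZM2G019373_T01. The difference had a median of 7.28 at 0 d, 7.25 at 1 d with 2 Lo5 arrays, and 7.94 at 4 d. Within the slides that held both lines it was 6.63, 7.89, 7.91 and 7.68 for slides 1 to 4. On slide 1, which was scanned on another day than the rest, the 2 Lo5 arrays had the highest medians of the Lo5 arrays, both −7.79.

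GRMZM2G019373_T01 had the largest difference. Its levels in T250 were 4.30, 1.89 and 1.57 at 0 d, 4.79, 3.79 and 2.82 at 1 d, and 4.27, 2.15 and 3.98 at 4 d, while the 8 Lo5 arrays had −8.75 at the lowest, −8.60 at the median and −6.02 at the highest. GRMZM2G167758_T01 followed with 2.83, 1.52 and 2.15 at 0 d, 2.24, 2.69 and 3.13 at 1 d, and 2.86, 3.38 and 3.37 at 4 d in T250, against −9.22 at the lowest, −8.76 at the median and −8.23 at the highest in Lo5. Both were bright on every T250 array, at least 938-fold and at least 631-fold above Lo5, but the first spanned a wider range within each day. GRMZM5G801031_T01 (at least 771-fold), GRMZM2G527891_T01 (at least 707-fold) and GRMZM2G456174_T01 (at least 778-fold) came next, with T250 levels of 2.37 to 3.69, 1.96 to 4.03 and 2.32 to 3.94. GRMZM2G527891_T01 is listed as TPS4 in the reference table, and 7 of its 9 T250 spots were marked as non-uniform by the scanner software.

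The other members of the 20 largest differences lay lower in T250, with the bound, marked spots counted, between at least 266-fold and at least 424-fold. They are GRMZM2G057852_T01, GRMZM2G142315_T01, GRMZM2G074032_T01, GRMZM2G171028_T01, GRMZM5G870571_T01, GRMZM2G009638_T01, GRMZM2G045270_T01, GRMZM2G064336_T01, GRMZM2G077401_T01, GRMZM2G443495_T01, GRMZM2G058612_T01, GRMZM2G128248_T01, GRMZM2G104730_T01, GRMZM2G158668_T01 and GRMZM2G094541_T01. In 9 of the 20 the SD over the 9 T250 arrays was under 0.5, and the steadiest of the named ones was GRMZM2G094541_T01, with T250 levels from 1.38 to 1.95. Of its 9 T250 spots 7 were marked as non-uniform, all those of 4 d among them. Another 2 stood out by single arrays. GRMZM5G870571_T01 read 9.51 on 0 d replicate 1 and 0.13 to 1.39 on the other 8 T250 arrays, and the bright spot was marked as non-uniform. With the marked spots left out, its difference was 9.18 in place of 10.22, and its T250 mean was 0.76 in place of 1.80. Its bound of at least 341-fold counts the bright spot and would be lower without it. GRMZM2G104730_T01 read −0.48 and −0.55 on 1 d replicates 2 and 3 and 1.73 to 2.65 on the other 7. A marked T250 spot was present in 14 of the 20.

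**Figure D2:**
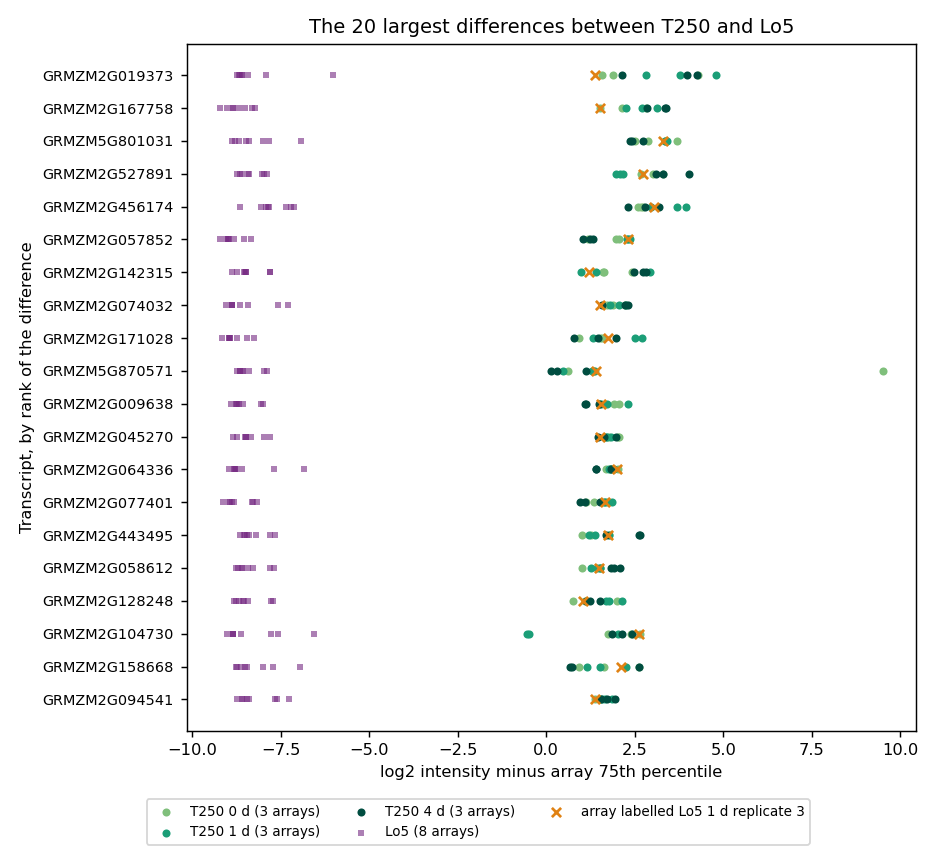
Levels (log2 scale relative to each array's 75th percentile) of the 20 transcripts with the largest differences, one row each, on the 9 T250 arrays (green circles, darker with days), the 8 Lo5 arrays (purple squares) and the array labelled Lo5 1 d replicate 3 (orange cross). T250 levels lie at −0.55 or above and Lo5 levels at −6.02 or below. The bound on the fold, with marked spots counted, runs from at least 266 to at least 938.

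The end of the ranking was gradual. The last members were GRMZM5G845130_T01 (5.87), GRMZM2G171395_T01 (5.86) and GRMZM5G869320_T01 (5.86), and the first probes left out were GRMZM2G431703_T01 (5.84), AC192381.3_FGT004 (5.83) and GRMZM2G060715_T01 (5.80). The 224 probes that met the detection rule but were not kept reached down to a difference of 1.82.

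Of the 200 members, 114 (57%) could be matched to exactly 1 gene of the current B73 annotation, 2 to more than 1 and 84 to none, against 46.2% of all 39372 probes matched to 1. Of these 114, 112 are annotated as protein coding and 2 as transcribed pseudogenes. Only some carry a gene name, and the named ones below were chosen for their names after their values had been seen. They hold enzymes of defence and fermentation metabolism, cytokinin receptors, proteins of protein folding and modification, and regulators of transcription and RNA editing.

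Cytochrome P450 enzymes are among them. BX5 (CYP71C3, GRMZM2G063756_T01) acts in the synthesis of benzoxazinoids, defence compounds of maize seedlings. Its levels in T250 were 1.57, 0.97 and 0.23 at 0 d, 1.27, −5.12 and 1.09 at 1 d, and 1.79, 0.38 and 1.11 at 4 d, while Lo5 had −8.92, −8.63 and −6.52 at the lowest, median and highest of 8 arrays. One T250 array, 1 d replicate 2, thus lay 5.35 below the next and was yet well above background. CYP92C6 (GRMZM2G139467_T01) forms volatile homoterpenes. It read −1.34, 1.19 and 2.78 at 0 d, −1.49, −1.55 and −0.97 at 1 d, and −1.43, −0.94 and 3.44 at 4 d in T250, with Lo5 from −8.71 to −5.34. The highest T250 arrays were 4 d replicate 3 and 0 d replicates 3 and 2, so the days overlapped.

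Pyruvate decarboxylase pdc2 (GRMZM2G038821_T01), an enzyme of ethanol fermentation, read −0.68, −1.52 and 0.80 at 0 d, −0.85, −0.33 and 0.09 at 1 d, and 0.57, 0.99 and 1.07 at 4 d in T250, against at most −7.73 in Lo5. The 4 d arrays were high together, but 0 d replicate 3 lay among them and 5 of the 9 spots were marked. The fit without marked spots gave a log2 ratio of 2.08 ± 0.57 (SE) for 4 d versus 0 d. This ratio rests on 1 unmarked 4 d spot and 2 unmarked 0 d spots, and leaves out that of 0 d replicate 3. It was not called after adjustment. With all spots counted, the day means lay closer together, at −0.47 for 0 d and 0.87 for 4 d. The exoglucanase exg1 (GRMZM2G147687_T01), named for a cell wall enzyme, read −0.59, −0.10 and −0.55 at 0 d, −0.19, −0.72 and −1.16 at 1 d, and −1.25, −1.54 and −1.59 at 4 d, with Lo5 at −6.69 or lower. Its 4 d arrays were all below its 0 d and 1 d arrays.

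Cytokinin receptors are histidine kinases of the membrane, and 2 of them met the rule. HK1 (GRMZM2G151223_T01) averaged −0.39 ± 0.46 over the T250 arrays (SD, n = 9), and HK3a (GRMZM2G158252_T01) −0.52 ± 0.69. In Lo5 they were at −7.64 and −6.42 at most. Over the 9 T250 arrays the 2 ran opposite to each other, with a correlation of −0.88, given as a description over arrays of 3 days. HK1 was lowest, at −1.33, on 4 d replicate 3, where HK3a was highest, at 0.79. That HK3a spot was marked as non-uniform, and so were those of its other high arrays, 0 d replicates 2 and 3. The correlation counts these marked spots.

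The chaperone HSP90-1 (GRMZM2G024668_T01) read 0.51, 0.46 and −0.22 at 0 d, 1.04, 0.98 and 0.45 at 1 d, and 0.10, 0.51 and 0.27 at 4 d in T250, against at most −7.55 in Lo5. In each of the 3 slides that hold a 0 d and a 1 d array, 1 d was higher, by 0.53, 0.52 and 0.67. Of these 6 spots 3 were marked, and the fit without them gave 0.31 ± 0.48 with an adjusted p of 0.976. SUMO1b (GRMZM2G082390_T01), a small protein attached to other proteins, was steady, with T250 levels from −0.19 to 0.66 and Lo5 levels of −6.38 or lower.

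Among regulators, bZIP76 (GRMZM2G134863_T01), a bZIP transcription factor, averaged −1.21 ± 0.80 over the T250 arrays (SD, n = 9), and sbp23 (GRMZM2G126018_T01), an SBP-domain transcription factor, −2.24 ± 0.37. Emp5 (GRMZM2G060536_T01), a pentatricopeptide repeat protein of organellar RNA editing, averaged −1.48 ± 0.41. Emp5 was higher at 1 d than at 0 d in all 3 slides, by 0.43, 0.49 and 0.59, yet the fitted log2 ratio of 0.50 ± 0.32 (SE) had an adjusted p of 0.905 in limma.

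The days within T250 are a readout that the ranking did not use, although a transcript had to be well above background on every day. limma compared the 3 days over the 9 T250 arrays, with marked spots left out and Benjamini-Hochberg adjustment over all probes tested. At 1 d versus 0 d, 0 of 193 members tested were called after adjustment (adjusted p of 0.05 or less, and a log2 ratio of 1 or more up or down), against 0.0106% of all probes tested. At 4 d versus 0 d, 0 of 193 were called, against 0.00696%, and at 4 d versus 1 d, 0 of 194, against 0.0726%. The test over the 3 days called 0 of 191 members, against 0.0177%. By the unadjusted limit of 0.05 alone, 11, 28 and 33 members passed in the 3 comparisons (5.70%, 14.5% and 17%), against 5.28%, 13.8% and 19.4% of all probes. The methods' t-test called 0 members after adjustment in each, while over all probes it called 0, 1 and 6.

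At the threshold of the methods (unadjusted p of 0.01 or less with a log2 ratio of 1 or more in size), members passed at shares near those of all probes. At 1 d versus 0 d, 1 of 193 members (0.518%) passed, against 0.753% of all probes. It was down, against 0.384% of all probes, and 0 were up, against 0.37%. The numbers were 6 of 193 (3.11%) against 3.66% at 4 d versus 0 d, and 12 of 194 (6.19%) against 5.8% at 4 d versus 1 d. Leaving out 1 array in turn moved these numbers, to between 0 and 7 at 1 d versus 0 d, 2 and 15 at 4 d versus 0 d, and 6 and 14 at 4 d versus 1 d. Without T250 0 d replicate 1 they were 7, 15 and 9, and without T250 1 d replicate 1 they were 6, 4 and 14. At 1 d versus 0 d, 0 passed without 0 d replicate 3 or without 1 d replicate 2, and 2 without 0 d replicate 2 or without 4 d replicate 3. At 4 d versus 0 d, 2 passed without 0 d replicate 2 or without 4 d replicate 1. At 4 d versus 1 d, 6 passed without 1 d replicate 2, and 7 without 1 d replicate 3, 4 d replicate 2 or 4 d replicate 3. Shares over all probes at this threshold are not given for the fits with an array left out. By direction, 5 members were up and 1 down at 4 d versus 0 d, against 1.59% and 2.06% of all probes, and 6 up and 6 down at 4 d versus 1 d, against 2.22% and 3.58%. In the test over the 3 days 7 of 191 members (3.66%) had an unadjusted p of 0.01 or less, against 4.87%. The median log2 ratio of the members was 0.13, 0.14 and 0.10 at 1 d versus 0 d, 4 d versus 0 d and 4 d versus 1 d, and that of all probes tested was 0.02, −0.04 and −0.07.

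**Figure D3:**
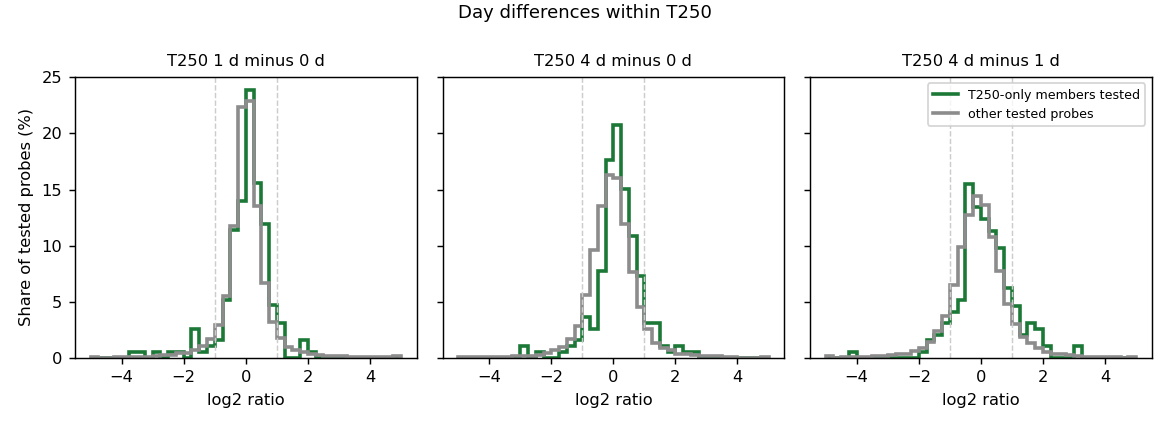
Share of tested probes (percent, y axis) by log2 ratio between days of T250 (x axis, narrow bins of equal width, the outermost holding all values beyond) for the T250-only members (green, 193, 193 and 194 tested) and the other tested probes (grey), with dashed lines at a log2 ratio of −1 and 1. Most members lie between the dashed lines, and the medians of the members are 0.13, 0.14 and 0.10.

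The members past the threshold of the methods at 4 d versus 0 d had levels that did not overlap between these days. That threshold favours transcripts whose days lie apart, so the separation is a description and adds no evidence. GRMZM2G176568_T01 read 2.25, 2.73 and 2.85 at 4 d and 1.33, 0.73 and −0.06 at 0 d, a log2 ratio of 2.27 ± 0.37 (SE) with an adjusted p of 0.134 in limma. GRMZM2G010702_T01 read −0.32, −0.03 and −0.44 at 4 d and −1.49, −2.79 and −1.77 at 0 d, a log2 ratio of 1.75 ± 0.42 with an adjusted p of 0.174. All 3 of its 4 d arrays were also above its 1 d arrays (−1.70, −2.87 and −1.93), with a log2 ratio of 1.90 ± 0.42 and an adjusted p of 0.0869. GRMZM2G004858_T01 had a log2 ratio of 2.24 ± 0.51 with an adjusted p of 0.227, which rests on 1 unmarked 4 d spot and 2 unmarked 0 d spots. The member down at 4 d was exg1, with a log2 ratio of −1.05 ± 0.29 and an adjusted p of 0.211, and its ratio was −0.53 with the slide as a block and −0.47 with normexp background correction.

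At 4 d versus 1 d the largest ratio belonged to GRMZM2G073373_T01, which read between −4.69 and −4.05 on the 3 arrays of 4 d and −0.73, −0.01 and 0.28 at 1 d. Its log2 ratio was −4.19 ± 0.90 (SE) with an adjusted p of 0.101. At 0 d it was split, with −0.53 and 0.53 on replicates 1 and 2 and −3.73 on replicate 3. GRMZM2G057975_T01 read −2.33, −1.77 and −2.07 at 4 d and −1.13, 0.19 and −0.64 at 1 d (log2 ratio −1.53 ± 0.34, adjusted p = 0.0887), and GRMZM2G102163_T01 −3.60, −2.76 and −3.36 against −2.09, −1.75 and −1.91 (log2 ratio −1.32 ± 0.37, adjusted p = 0.129). In both the 4 d arrays were all below the 1 d arrays. When the median signals were corrected by normexp, the log2 ratio was −1.68 for GRMZM2G073373_T01, −0.62 for GRMZM2G057975_T01, −0.12 for GRMZM2G102163_T01 and 1.08 for GRMZM2G010702_T01.

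The largest ratios on the upper side of that comparison, besides GRMZM2G010702_T01, belonged to 2 transcripts. GRMZM2G063126_T01 read −1.83, 0.11 and −1.96 at 4 d and −3.56, −3.11 and −2.83 at 1 d (log2 ratio 1.94 ± 0.58, adjusted p = 0.141). Without T250 4 d replicate 2, its highest array, the ratio was 1.27 with an adjusted p of 0.286 in limma. GRMZM2G468799_T01 read 0.60, 0.48 and −0.34 at 4 d, 0.10, −1.66 and −1.80 at 1 d, and 0.08, 0.07 and −0.16 at 0 d. Its log2 ratios were 1.98 ± 0.35 for 4 d versus 1 d (adjusted p = 0.0825) and −1.69 ± 0.38 for 1 d versus 0 d (adjusted p = 0.903). These leave out 2 marked spots, of which that of 1 d replicate 1 lay among the levels of the other days. With normexp the ratios were 1.30 and −1.06, and with marked spots kept that for 1 d versus 0 d was −1.12.

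The members compared within a slide here were picked by the fit over all 9 T250 arrays, so a shared direction adds no evidence. Of the slides, only slide 5 held T250 arrays of 4 d and of other days. Within it, 4 d minus 0 d was 2.31 for GRMZM2G176568_T01, 1.45 for GRMZM2G010702_T01, 0.51 for GRMZM2G004858_T01 and −0.70 for exg1, and 4 d minus 1 d was −4.97 for GRMZM2G073373_T01, −1.70 for GRMZM2G057975_T01, −1.70 for GRMZM2G102163_T01, 1.00 for GRMZM2G063126_T01 and 2.40 for GRMZM2G468799_T01, each from 1 array a day and in the direction of the fit. With the slide as a block, no member was called, but neither was any other probe, so this says nothing about the members.

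The median spread between replicates was close to that of other probes detected throughout T250, while a larger share of the members was widely scattered. The SD within days had a median of 0.46 over the members, with 10th and 90th percentiles of 0.22 and 1.14. Over the 26491 probes well above background on all 9 T250 arrays the median was 0.42, with 10th and 90th percentiles of 0.20 and 0.94. The range over the 9 arrays was above 4 in 16 members (8%) and in 4.56% of those probes. The range of the 3 day means had a median of 0.69 in the members and 0.59 in those probes, and it was above 1 in 60 members (30%) and in 22.3% of the probes. The highest day mean was at 4 d in 89 members (44.5%), at 1 d in 75 (37.5%) and at 0 d in 36 (18%), against 35.6%, 36.7% and 27.7% of the probes. These shares are descriptions, since no day difference of a member was called.

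The steadiest members over the days were GRMZM2G106680_T01, GRMZM2G558539_T01 and GRMZM2G153615_T01, with ranges of day means of 0.03, 0.06 and 0.07. GRMZM2G558539_T01 lay between 0.21 and 0.51 on all 9 T250 arrays and at −7.80 or lower in Lo5. The widest ranges of day means belonged to GRMZM2G069694_T01 (4.46), GRMZM2G073373_T01 (4.26), GRMZM2G448913_T01 (3.36), GRMZM5G870571_T01 (3.31) and GRMZM2G119322_T01 (3.11). In most of these single arrays, and not whole days, stood apart.

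GRMZM2G069694_T01 read −3.70, 2.02 and 2.50 at 0 d, −3.18, −4.48 and −4.90 at 1 d, and −3.62, −3.39 and 1.18 at 4 d in T250. The 3 high arrays, 0 d replicates 2 and 3 and 4 d replicate 3, were 4.36 or more above the other 6. GRMZM2G448913_T01 read −2.99, 1.43 and 1.38 at 0 d, −3.93, −3.49 and −2.82 at 1 d, and −3.27, −1.62 and −3.79 at 4 d, so that 0 d replicates 2 and 3 stood 3.0 above the rest. GRMZM2G162007_T01 was high on the same 2 arrays (1.44 and 1.54) and between −2.19 and −0.89 on the other 7. GRMZM2G119322_T01 was level at 4 d (−0.38, −0.40 and −0.39) and lower and scattered at 0 d (−3.02, −4.18 and −1.85) and 1 d (−3.74, −5.39 and −1.38).

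In 13 members (6.5%) a gap above 2 parted the 9 T250 levels, against 3.21% of the 26491 probes well above background on all 9 T250 arrays. GRMZM2G148726_T01 read −5.98 on 1 d replicate 3 and 1.17 to 2.48 on the other 8. That low spot was still well above the background of its array. Without T250 0 d replicate 1, limma called GRMZM2G162007_T01, GRMZM2G448913_T01 and GRMZM2G069694_T01 lower at 1 d than at 0 d, and the same 3 and GRMZM2G461139_T01 lower at 4 d than at 0 d. None of these members was called with that array in the fit. Leaving that array out raised the calls over all probes from 3 to 195 at 1 d versus 0 d. At 4 d versus 0 d it raised them from 2 to 303.

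**Figure D4:**
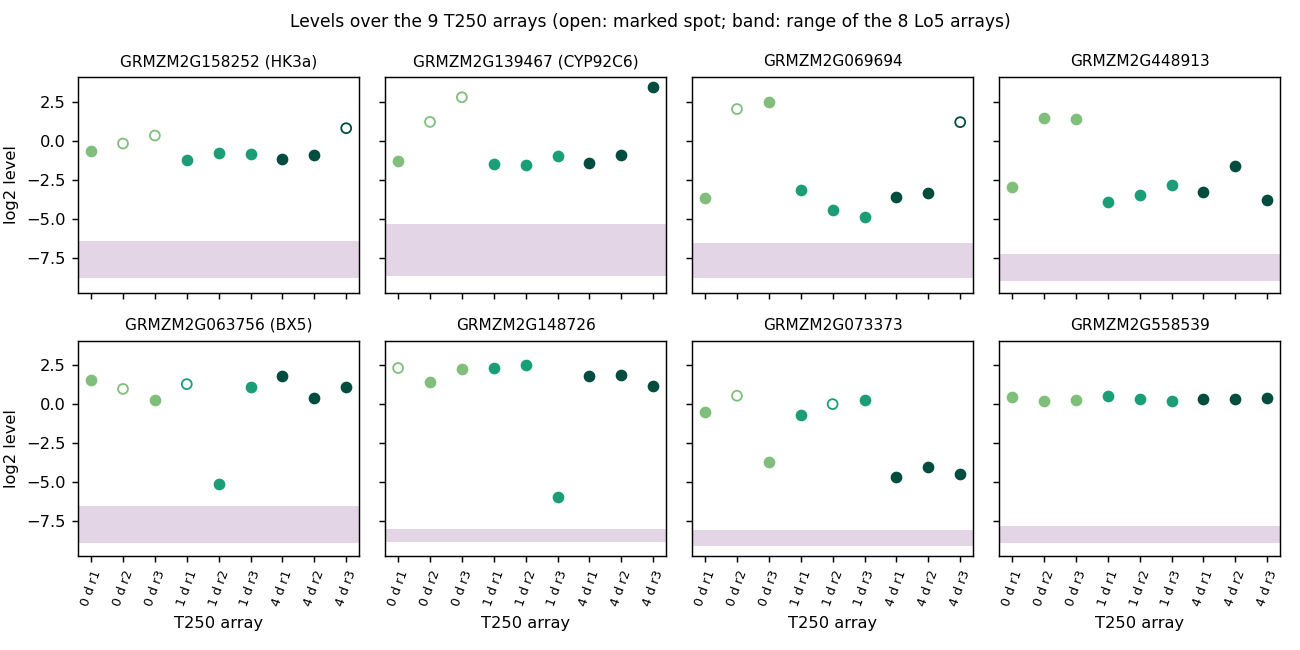
Level (log2 scale relative to each array's 75th percentile) of 8 members on the 9 T250 arrays (x axis, day and replicate), with spots marked as non-uniform drawn open and the range of the 8 Lo5 arrays as a purple band. HK3a, CYP92C6 and GRMZM2G069694_T01 are highest on 0 d replicates 2 and 3 and 4 d replicate 3, BX5 and GRMZM2G148726_T01 are low on 1 array each, and GRMZM2G558539_T01 stays between 0.21 and 0.51.

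Which 3 T250 arrays were highest varied widely, with 67 different sets of 3 among the members. The 3 arrays of 4 d were highest in 13 members (6.5%), against 5.81% of the 26491 probes well above background on all 9 T250 arrays. They were 0 d replicates 2 and 3 and 4 d replicate 3 in 12 members (6%), HK3a, CYP92C6 and GRMZM2G069694_T01 among them, against 4.29% of those probes, and 0 d replicate 2 with 1 d replicates 2 and 3 in another 12 (6%), against 5.61%. CYP92C6 and HK3a ran together with a correlation of 0.96 over the 9 T250 arrays, which they share, and CYP92C6 and GRMZM2G069694_T01 with 0.91. On 2 of the 3 high arrays the spots of CYP92C6 were marked, and on all 3 those of HK3a.

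Some members were almost copies of each other in level as well as in pattern. GRMZM2G496477_T01 and GRMZM2G160178_T01 differed by at most 0.22 on any T250 array, and GRMZM2G520903_T01 by at most 0.50 and 0.42 from these. GRMZM2G339206_T01 and GRMZM2G062911_T01 differed by at most 0.39. Whether such probes read 1 transcript or several cannot be told from the files, so they may not be separate members. These likenesses were picked after the values had been seen.

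No 2 members were next to each other among the 17687 genes of the array that could be placed in the reference annotation, in which 112 members have a place. By the same measure 3 members were each next to a probe of the rule that was not kept. GRMZM2G057852_T01 (rank 6 of the differences) and GRMZM2G057779_T01 (rank 387) had 0 other annotated genes between them, GRMZM2G034896_T01 (rank 51) and GRMZM2G104639_T01 (rank 376) had 1, and GRMZM2G137120_T01 (rank 98) and GRMZM2G047572_T01 (rank 315) had 3.

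The array labelled Lo5 1 d replicate 3, which the rule did not use, carried most of the members at T250 levels. Its median over the 200 was −0.93, and 146 members lay within the range of the 9 T250 arrays, 40 below it and 14 above it. For comparison, each T250 array had between 138 and 188 members within the range of the other 8. In 159 members its level was within 1 of the T250 mean, with a median difference of −0.12, and 190 were above every Lo5 array. GRMZM2G019373_T01 read 1.38 there, BX5 0.92, CYP92C6 1.09 and HSP90-1 0.25.

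Some levels on this array also differed from those on the T250 arrays. Over the 200 members its levels correlated with the mean of the T250 arrays at 0.50, while each T250 array correlated with the mean of the other 8 at 0.76 to 0.90, given as a description across transcripts. Every member had to be well above background on each T250 array, which by itself favours higher correlations among those. No such demand was made on this array. The 12 members not well above background there included GRMZM2G496477_T01, GRMZM2G160178_T01 and GRMZM2G520903_T01, at −8.29, −8.27 and −8.34, although all 9 T250 arrays had them between −0.70 and 1.66. GRMZM2G339206_T01 (−6.74) and GRMZM2G062911_T01 (−8.28) were also not well above background there. GRMZM2G069694_T01 lay at −5.67 and GRMZM2G448913_T01 at 1.93, each beyond the range of the T250 arrays. Of the 165 probes of the opposite pattern, 14 were well above background on it.

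**Figure D5:**
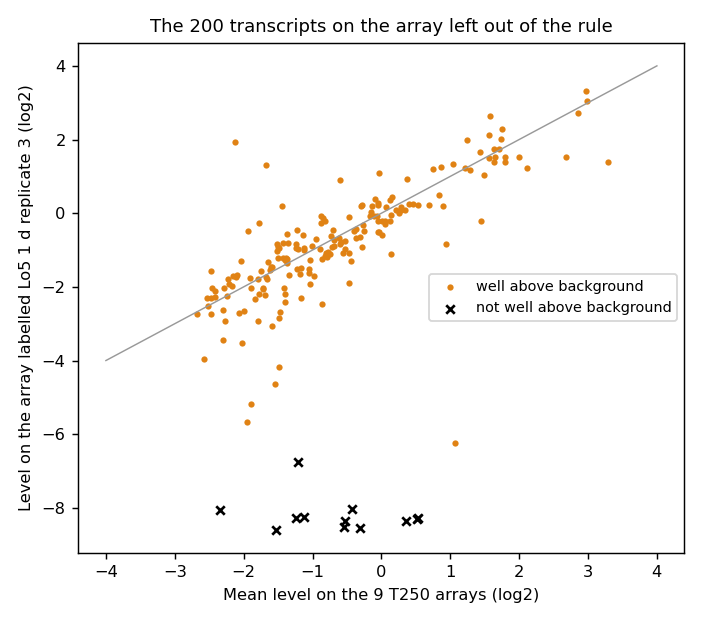
Level of each of the 200 transcripts on the array labelled Lo5 1 d replicate 3 (y axis) against its mean on the 9 T250 arrays (x axis), both on the log2 scale relative to each array's 75th percentile, with a line of equal level. The 188 members well above background (orange) lie mostly along the line, and the 12 that are not (black crosses) lie at −6.74 or lower.

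Marks for uneven spots were more common on some T250 arrays than on others. They fell on 222 of the 1800 member spots in T250 (12.3%), all of them marked as non-uniform, against 11.2% for the 26491 probes well above background on all 9 T250 arrays. By array they ran from 8 of 200 on 4 d replicate 2 to 45 of 200 on 0 d replicate 3, and on the 8 Lo5 arrays no member spot was marked. In 119 members no T250 spot was marked, and in 9 all spots of at least 1 day were. Their part in the levels was not tested beyond the fits with and without marked spots.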

How the data were processed

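Each of the 18 root samples was hybridized in 1 colour on its own sub-array. The authors deposited scanner output of Agilent Feature Extraction 10.5.1.1, whose processed intensity is corrected for background and detrended within the array, and a set of the same intensity values, each array multiplied by a factor of its own. Here the processed intensity was put on the log2 scale and the 75th percentile of its array subtracted, and the marks well above background, non-uniform, population outlier and saturated were read as deposited. Members and lists were chosen with earlier results of these data known.

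The days of T250 were compared with limma 3.58.1 in R 4.3.3 on the 9 T250 arrays, for probes that were well above background throughout 1 or more of the T250 groups, leaving out marked spots. p-values are two-sided with Benjamini-Hochberg adjustment within each comparison. With 3 arrays against 3 an exact permutation test cannot give a p below 0.1, so none was run. On simulated data of 29879 probes, 200 were changed by a log2 ratio of 2 at 4 d. Of these 200, 82 (41%) were recovered after adjustment, with 3 false calls. The fit of the 9 T250 arrays left out marked spots and tested 28728 probes at 4 d versus 0 d. Whether the 41% and the 3 false calls hold for that fit was not tested. Python 3.11.15 (numpy 2.4.6, pandas 2.3.3, matplotlib 3.10.9) made the tables and figures. The number of arrays limits the precision.

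Named are the 20 largest differences, the members with the largest log2 ratios past the threshold of the methods (up to 3 each way per comparison, since none was called after adjustment), those beside rank 200, neighbours, and those with the 5 largest and 3 smallest ranges of day means. Of the 16 word lists of gene functions, 1 found a member (transcription factors, bZIP76), since the names at hand are short symbols, so the lists were not used. Names come from the Zm-B73-REFERENCE-NAM-5.0 table, which differs from the annotation of the array, so no positions are given. The correlation of deviations between arrays of the same replicate number was 0.40, 0.22 and 0.23 for 1 d with 0 d, 0.30, −0.23 and 0.39 for 4 d with 0 d, and 0.06, −0.08 and 0.05 for 4 d with 1 d. Between arrays of unlike number it ran from −0.51 (0 d replicate 1 with 4 d replicate 3) to 0.48 (0 d replicate 1 with 4 d replicate 2). Within a group the numbers mark separate growth experiments. The labels do not say whether a number marks the same experiment on different days. The numbers were used as a block only in an alternative. One member is not reported here by name.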

Additional observations from a re-analysis of the deposited data

Results flagged for a closer look

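On the array labelled Lo5 1 d replicate 3, which no comparison here uses, 188 of the 200 transcripts (94%) were well above background. Of all probes, 75.1% were well above background on it. None of the other 8 Lo5 arrays had any of the 200 there, which the rule required. The value of 188 stands out as signal in data outside the comparisons. No explanation for it was tested.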

How the results depend on the processing

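The number of probes that met the rule was 340 with probes of any marked spot left out, between 427 and 465 with 1 array left out in turn, and 26 with the array labelled Lo5 1 d replicate 3 counted among the Lo5 arrays. The median difference of the members was 7.31 after quantile normalization, 7.30 without marked spots and 5.80 with Lo5 signals raised to the lowest signal well above background, which by its construction removes the part below that signal. By the same 2 changes of scale, 200 and 189 of the 200 members stayed among the 200 largest differences. Members called between days after adjustment were 0 with the replicate number as a block, and equally with the slide as a block, with quantile normalization, with the methods' t-test and in every other fit run, except those named next. Over all probes, the replicate block and the slide block each called 0 in every comparison. Quantile normalization called 3, 3 and 27 of all probes in the 3 comparisons, and the methods' t-test 0, 1 and 6. With so few calls over all probes, 0 called members says little about the members. In the fit of all 6 groups on 17 arrays they were 4 at 4 d versus 1 d (GRMZM2G010702_T01, GRMZM2G057975_T01, GRMZM2G057852_T01 and GRMZM2G073373_T01) and 2 in the test over the 3 days. Over all probes, that fit called 924 and 427. At the threshold of the methods, members passing were 1, 6 and 12 in the 3 comparisons and 7 in the test over the 3 days. Members called after adjustment with each T250 array left out in turn ran between 0 and 3 at 1 d versus 0 d, 0 and 4 at 4 d versus 0 d, 0 and 1 at 4 d versus 1 d, and 0 and 3 in the test over the 3 days. The 3, 4 and 3 came without T250 0 d replicate 1, and GRMZM2G104730_T01 was called without T250 1 d replicate 1, GRMZM2G073373_T01 without T250 0 d replicate 3. Over all probes, the fit without 0 d replicate 1 called 195, 303 and 270 in the same results. The fit without 1 d replicate 1 called 211 at 1 d versus 0 d, 383 at 4 d versus 1 d and 267 over the 3 days. The fit without 0 d replicate 3 called 139 at 4 d versus 1 d. The cause of these changes was not tested. The slide as a random block and the scan day as a block were chosen after seeing the data, and they called 0 members. Over all probes the random block called 3, 2 and 103 in the 3 comparisons, and the scan day block 2, 18 and 51. Normexp, set for the mean signals, was run on the median signals. It moved the ratios of 6 named transcripts by over 1.5 times, as given with them, without changing a sign. Below the lowest signal well above background, between −7.07 and −5.78 by array, a level rests on the background.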
